A study of Mus musculus with 6 samples.

Results

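Brain endothelial and blood-brain barrier genes were followed across the hypothalamus of 3 mouse genotypes. The set holds 10 genes named for their role in the cerebral vessel wall, Cdh5, Esam, Cldn5, Pecam1, Tek, Flt1, Kdr, Slco1a4, Slc2a1 and Abcb1a, and every array probe whose transcript mapped to one of them. All 10 were among the 22863 genes tested. They were read by 11 of 39429 probes, since Kdr had 2 probes and the others had 1 each.

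Male C57BL/6J mice were studied at 16 weeks of age, and every group carried the floxed Trsp alleles (TrspFlox/Flox). Trsp-RIPKO mice had RIP-Cre in addition, Trsp-Ins1KO mice had Ins1-Cre in addition, and TrspFF mice had the floxed alleles alone. Each genotype was represented by 2 single-colour arrays. Trsp encodes the transfer RNA that inserts selenocysteine into selenoproteins, and the series text describes the conditional knockout as a model of oxidative stress. RIP-Cre is driven by a rat insulin promoter that is active in pancreatic beta cells and also in part of the hypothalamus, and Ins1-Cre is driven from the insulin 1 locus of beta cells. Neither driver is an endothelial one, and mice with Cre but no floxed alleles were not analysed here. The labels do not say whether arrays came from separate animals or from pools, so a p-value here speaks only of array-to-array spread, part or all of which may be technical. Trsp itself had no named probe, and 0 of 49997 gene table entries carried its name, so the deletion was not checked.

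Both TrspFF arrays came from 1 slide and scan, and all 4 knockout arrays from another. Slide and genotype therefore cannot be told apart in any comparison with TrspFF, whereas the 2 knockouts can be compared within 1 slide. The share of probes well above background was 68.9% to 72.0% per array, 0 probes were saturated, and the 75th percentile of signal lay between 1391 and 2137 intensity units. The deposited value table and the scanner files name the knockouts in opposite ways: every column of the table has its counterpart in 1 scanner file (r of at least 0.9999686 over 39311 probes), but a column headed with one knockout has it in an array labelled with the other. Genotypes are given here as the scanner files are labelled. Under the names of the value table each knockout result below would belong to the other knockout, and the sign of every difference between the knockouts would turn.

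Capillaries of the brain are lined by endothelial cells that are sealed to each other by tight and adherens junctions and that carry nutrients in and foreign molecules out through dedicated transporters. Receptor tyrosine kinases for VEGF and angiopoietins govern the growth and quiescence of these cells. The hypothalamus holds both barrier vessels of this kind and, in the median eminence, fenestrated vessels that lack the barrier. In a tissue extract, fewer cells of a type and less RNA per cell cannot be told apart.

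Sequence upstream of the transcription start was available from RefSeq (build GRCm38.p6) for 7 of the 10 genes. A window of 200 bases before the start was searched on both strands for the core motifs of 3 factor families that act in endothelium: the ETS core, written GGAAG or its reverse complement CTTCC, the SOX core, written ATTGT or its reverse complement ACAAT, and the hypoxia element, written ACGTG or its reverse complement CACGT. The sequences of the 2 transporters with the largest differences between the knockouts, Slco1a4 and Abcb1a, and of Slc2a1, a transporter that differed little, are printed 5′ to 3′ on the strand of the gene, with motif matches in capitals. For Slco1a4 only the 136 bases outside the annotated gene are shown (chr6:141856285-141856420, minus strand). The Abcb1a window is chr5:8566891-8567090 (plus strand) and the Slc2a1 window is chr4:119108545-119108744 (plus strand).
Slco1a4: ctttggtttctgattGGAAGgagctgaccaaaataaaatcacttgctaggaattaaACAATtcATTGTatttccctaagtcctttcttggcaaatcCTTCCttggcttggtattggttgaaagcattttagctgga
Abcb1a: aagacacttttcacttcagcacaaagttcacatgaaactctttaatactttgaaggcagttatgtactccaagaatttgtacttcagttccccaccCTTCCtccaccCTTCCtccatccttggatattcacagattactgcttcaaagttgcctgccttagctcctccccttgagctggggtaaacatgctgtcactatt
Slc2a1: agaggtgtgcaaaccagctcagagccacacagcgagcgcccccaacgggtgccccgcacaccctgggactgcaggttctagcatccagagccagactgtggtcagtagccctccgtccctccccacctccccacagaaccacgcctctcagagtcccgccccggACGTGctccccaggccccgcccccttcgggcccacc

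The ETS core was found in 3 of the 7 windows, with 3 matches for Flt1, 2 for Slco1a4 and 2 for Abcb1a, against 56.8% of 32851 mouse promoter windows of the same length. The SOX core was found in 2 of 7 (Tek and Slco1a4, 2 matches each), against 22.7% of all windows. The hypoxia element was found in 1 of 7 (Slc2a1, 1 match), against 14% of all windows. Matches of different motifs overlapped 0 times. The windows of Tek, Flt1 and Kdr lie inside the annotated span of their genes and are not shown. These are matches of letters, and no binding was measured.

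All 11 probes were well above background on all 6 arrays, so each gene had a measured level in every array. Levels are log2 processed signal minus the 75th percentile of the array (log2), and a level of 0 equals that percentile. Levels of different genes rest on different probes and were not set against each other. A difference is the level of the first-named genotype minus that of the second-named one (log2), with the moderated standard error and the Benjamini-Hochberg adjusted p of limma over all 22863 genes, and the threshold is an adjusted p of 0.05.

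The set was highest in Trsp-RIPKO and lowest in Trsp-Ins1KO, with TrspFF between them, but 0 of its 10 genes passed the threshold in the fit of all 6 arrays. Between the knockouts 9 of 10 genes had a positive difference (Trsp-RIPKO minus Trsp-Ins1KO), against 42.1% of all genes. The median of the 10 was 0.71, against -0.05 over all genes. Of Trsp-RIPKO against TrspFF 6 of 10 differences were positive, against 48.1% of all genes (median 0.27, all genes -0.01). Of Trsp-Ins1KO against TrspFF 0 of 10 were positive, against 53.1% of all genes (median -0.37, all genes 0.02). Scaling the arrays to their median made Flt1 positive in the Trsp-RIPKO comparison (0.06) and Kdr positive in the Trsp-Ins1KO comparison (0.02), and normexp background correction made Slc2a1 positive in the Trsp-Ins1KO comparison (0.01).

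**Figure D1:**
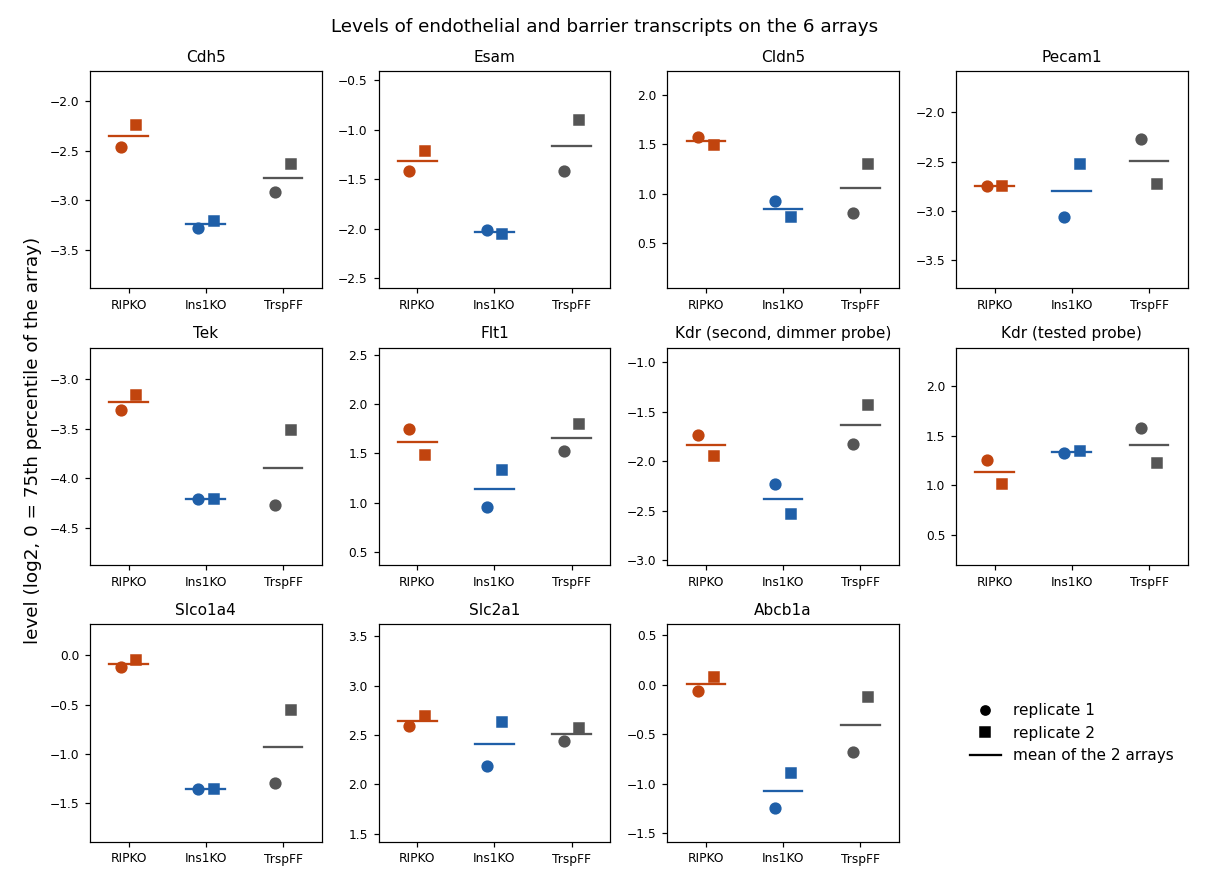
Level of each probe (log2 processed signal minus the 75th percentile of the array) on every array, with 1 panel per probe and the genotypes in the order Trsp-RIPKO, Trsp-Ins1KO and TrspFF. Circles are replicate 1, squares are replicate 2 and lines are the mean of the 2 arrays, and each panel has its own offset on the vertical axis. For Slco1a4 both Trsp-RIPKO arrays sit above both TrspFF arrays and both Trsp-Ins1KO arrays below them. For Slc2a1 the genotypes lie close together, and for Pecam1 the widely spread Trsp-Ins1KO arrays overlap Trsp-RIPKO.

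Of the 4 junction and adhesion genes, Cdh5, Esam and Cldn5 had higher levels on both Trsp-RIPKO arrays than on both Trsp-Ins1KO arrays, and Pecam1 did not. Cdh5 (chr8:104101613-104144504, GRCm38.p6, as for all gene positions here) encodes VE-cadherin, the adherens junction protein of endothelium. Its level was -2.46 and -2.23 in Trsp-RIPKO, -3.28 and -3.21 in Trsp-Ins1KO, and -2.91 and -2.64 in TrspFF. The 3 genotypes did not overlap, with Trsp-RIPKO highest. Cdh5 differed by 0.90 ± 0.14 (SE, 2 arrays each) between Trsp-RIPKO and Trsp-Ins1KO, a 1.86-fold level, with an adjusted p of 0.263 by limma. Against TrspFF the differences were 0.43 in Trsp-RIPKO (adjusted p = 0.1695) and -0.47 in Trsp-Ins1KO (adjusted p = 0.1334).

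Esam (chr9:37528089-37538319) encodes an adhesion molecule of endothelial tight junctions. It read -1.41 and -1.21 in Trsp-RIPKO, -2.01 and -2.06 in Trsp-Ins1KO, and -1.42 and -0.90 in TrspFF. Both Trsp-Ins1KO arrays lay below the other 4, while Trsp-RIPKO and TrspFF overlapped. The difference between Trsp-Ins1KO and TrspFF was -0.87 ± 0.20 (SE), a level 1.83-fold lower, and its adjusted p of 0.0922 by limma was the smallest of any member in any comparison. Trsp-RIPKO against Trsp-Ins1KO gave 0.72 (adjusted p = 0.263) and Trsp-RIPKO against TrspFF gave -0.15 (adjusted p = 0.65). Without TrspFF replicate 1, Esam passed in Trsp-Ins1KO against TrspFF with a difference of -1.14 (adjusted p = 0.0492).

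Cldn5 (chr16:18776847-18778262) encodes claudin-5, the main tight junction claudin of brain capillaries. It read 1.58 and 1.49 in Trsp-RIPKO, 0.92 and 0.76 in Trsp-Ins1KO, and 0.81 and 1.30 in TrspFF. Trsp-RIPKO lay above every other array, while Trsp-Ins1KO overlapped the wide TrspFF pair. The difference was 0.69 between the knockouts (1.62-fold, adjusted p = 0.263), 0.48 for Trsp-RIPKO against TrspFF (adjusted p = 0.21) and -0.21 for Trsp-Ins1KO against TrspFF (adjusted p = 0.4963).

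Pecam1 (chr11:106654213-106715281) encodes CD31, an adhesion molecule of endothelium that platelets and leukocytes also carry. It read -2.75 on both Trsp-RIPKO arrays, -3.07 and -2.52 in Trsp-Ins1KO, and -2.27 and -2.72 in TrspFF. The knockouts overlapped, and the difference between them was 0.05 with a 95% interval of -0.57 to 0.66. Against TrspFF the differences were -0.25 in Trsp-RIPKO (adjusted p = 0.5435) and -0.30 in Trsp-Ins1KO (adjusted p = 0.4609). The sign of the difference between the knockouts rested on single arrays, with -0.23 without Trsp-Ins1KO replicate 1 and 0.32 without Trsp-Ins1KO replicate 2.

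Of the 3 receptor tyrosine kinases, Tek had the largest difference between the knockouts. Tek (chr4:94739086-94874976) encodes TIE2, the receptor of the angiopoietins. Its level was -3.31 and -3.15 in Trsp-RIPKO, -4.21 on both Trsp-Ins1KO arrays, and -4.27 and -3.51 in TrspFF. Trsp-RIPKO lay above all other arrays, and TrspFF replicate 1 was as low as Trsp-Ins1KO. The difference between Trsp-RIPKO and Trsp-Ins1KO was 0.98 ± 0.26 (SE), or 1.97-fold, with an adjusted p of 0.263 by limma. Trsp-RIPKO against TrspFF gave 0.66 (adjusted p = 0.2139) and Trsp-Ins1KO against TrspFF gave -0.32 (adjusted p = 0.4692).

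Flt1 (chr5:147561604-147726438) encodes VEGFR1, which binds VEGF tightly and limits its signal. It read 1.74 and 1.48 in Trsp-RIPKO, 0.96 and 1.33 in Trsp-Ins1KO, and 1.52 and 1.80 in TrspFF. Both Trsp-Ins1KO arrays lay below the other 4. The difference was 0.47 between the knockouts (1.39-fold, adjusted p = 0.2723), -0.52 for Trsp-Ins1KO against TrspFF (adjusted p = 0.1757) and -0.05 for Trsp-RIPKO against TrspFF (95% interval -0.53 to 0.44).

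Kdr (chr5:75932827-75979072) encodes VEGFR2, the main signalling receptor for VEGF, and its 2 probes disagreed. The brighter probe, with 1 spot per array, stood for the gene in the tests. It read 1.26 and 1.01 in Trsp-RIPKO, 1.33 and 1.35 in Trsp-Ins1KO, and 1.58 and 1.23 in TrspFF. The dimmer probe, with 10 spots per array before flagged ones were left out, read -1.73 and -1.95 in Trsp-RIPKO. It read -2.23 and -2.53 in Trsp-Ins1KO, and -1.83 and -1.43 in TrspFF. By the brighter probe Trsp-RIPKO was lower than Trsp-Ins1KO (-0.20, adjusted p = 0.4877), and by the dimmer probe it was higher (0.54, adjusted p = 0.2662). In neither probe did the arrays of the 2 knockouts overlap. The mean of both probes gave 0.17. Trsp-Ins1KO against TrspFF was -0.07 by the brighter probe (adjusted p = 0.8049) and -0.75 by the dimmer one (adjusted p = 0.1063). Trsp-RIPKO against TrspFF was -0.27 and -0.21 in the same order. Which transcripts of Kdr the probes read was not tested.

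The transporters held the largest differences of the set. Slco1a4 (chr6:141805438-141856284) encodes an organic anion transporter of the brain capillary wall. It read -0.12 and -0.05 in Trsp-RIPKO, -1.36 and -1.35 in Trsp-Ins1KO, and -1.29 and -0.56 in TrspFF. The 3 genotypes did not overlap, although TrspFF replicate 1 was close to Trsp-Ins1KO. Slco1a4 differed by 1.26 ± 0.25 (SE) between Trsp-RIPKO and Trsp-Ins1KO, or 2.4-fold, with an adjusted p of 0.263 by limma. Trsp-RIPKO against TrspFF gave 0.84 (1.78-fold, adjusted p = 0.1474) and Trsp-Ins1KO against TrspFF gave -0.43 (adjusted p = 0.3297).

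Abcb1a (chr5:8567091-8748575) encodes P-glycoprotein, the efflux pump that returns many drugs to the blood. It read -0.06 and 0.08 in Trsp-RIPKO, -1.25 and -0.89 in Trsp-Ins1KO, and -0.68 and -0.13 in TrspFF. The genotypes again did not overlap and kept the order of Slco1a4. The difference was 1.08 ± 0.23 (SE) between the knockouts (2.12-fold, adjusted p = 0.263 by limma), 0.42 for Trsp-RIPKO against TrspFF (adjusted p = 0.33) and -0.67 for Trsp-Ins1KO against TrspFF (adjusted p = 0.164).

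Slc2a1 (chr4:119108745-119137330) encodes GLUT1, which carries glucose across the barrier and is also made by astrocytes. It read 2.59 and 2.69 in Trsp-RIPKO, 2.19 and 2.63 in Trsp-Ins1KO, and 2.44 and 2.57 in TrspFF. Its range over the 6 arrays, 0.50, was the smallest of the set, and Abcb1a had the largest at 1.33. Slc2a1 differed by 0.23 between the knockouts (95% interval -0.21 to 0.67), by 0.13 between Trsp-RIPKO and TrspFF and by -0.10 between Trsp-Ins1KO and TrspFF.

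**Figure D2:**
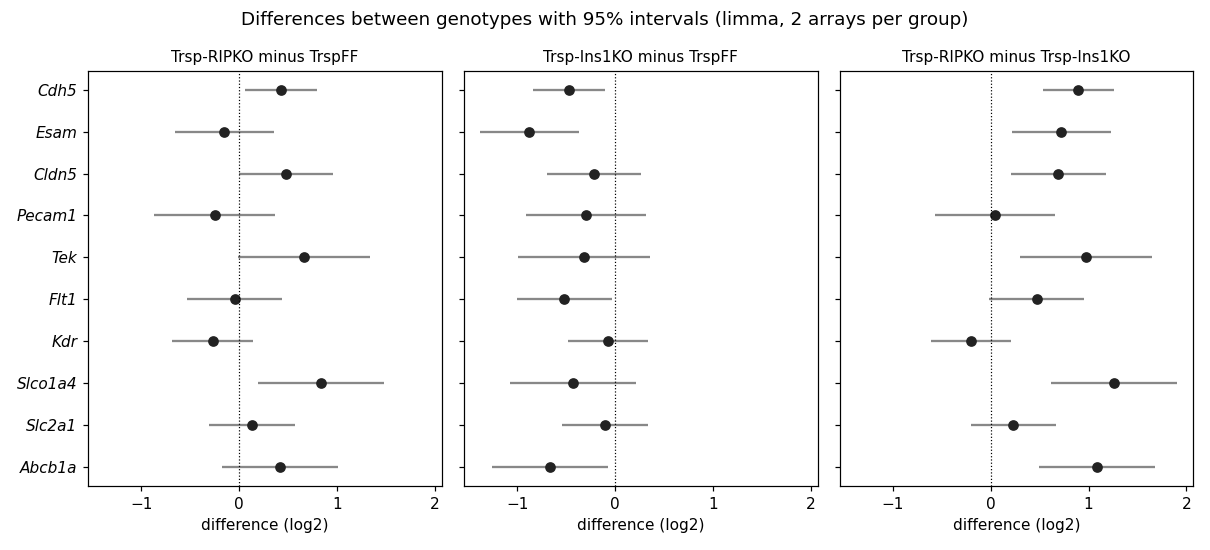
Difference of each gene in the 3 comparisons (log2, first-named genotype minus the second), with points for the fitted difference and bars for the 95% interval of limma, not adjusted for the number of genes. Between Trsp-RIPKO and Trsp-Ins1KO the intervals of Cdh5, Esam, Cldn5, Tek, Slco1a4 and Abcb1a lie above 0, while those of Pecam1, Flt1, Kdr and Slc2a1 span it.

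Counted over the set, 0 of 10 genes passed limma at an adjusted p of 0.05 in Trsp-RIPKO against TrspFF, where 1.66% of all genes did. At an unadjusted p under 0.05 there were 2 (Cdh5 and Slco1a4), against 23.9% of all genes. In 6 of 10 both Trsp-RIPKO arrays lay above both TrspFF arrays, which held for 28.0% of all genes, and in 1 (Pecam1) both lay below, against 30.2%. In Trsp-Ins1KO against TrspFF 0 of 10 passed, against 1.82% of all genes, and 4 (Cdh5, Esam, Flt1 and Abcb1a) had an unadjusted p under 0.05, against 26.0%. In 5 of 10 (those 4 and Slco1a4) both Trsp-Ins1KO arrays lay below both TrspFF arrays, against 26.4%. These 2 comparisons share the TrspFF arrays.

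Between Trsp-RIPKO and Trsp-Ins1KO 0 of 10 passed, where 0.0175% of all genes did (4 genes, all lower in Trsp-RIPKO). At an unadjusted p under 0.05 there were 6 (Cdh5, Esam, Cldn5, Tek, Slco1a4 and Abcb1a), against 18.4% of all genes. In 7 of 10 both Trsp-RIPKO arrays lay above both Trsp-Ins1KO arrays, against 22.9% of all genes. In 1 (Kdr, by its tested probe and not by its second one) both lay below, against 35.8%. In Cdh5, Slco1a4 and Abcb1a both Trsp-RIPKO arrays lay above both TrspFF arrays and these above both Trsp-Ins1KO arrays, an order found in 1.65% of all genes. The members were chosen with earlier results of these data known, so these counts are a description.

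The knockouts share a slide, and a fit of their 4 arrays alone leaves out the spread of the TrspFF pair. In that fit 2 of 10 genes rose in Trsp-RIPKO relative to Trsp-Ins1KO, against 1.40% of all genes (319, of which 163 were higher and 156 lower). They were Slco1a4, with the same difference of 1.26 and an SE of 0.0816 (adjusted p = 0.0245 by limma), and Tek, with 0.98 and an SE of 0.0958 (adjusted p = 0.0459). Cdh5, Abcb1a, Cldn5 and Esam had adjusted p-values of 0.0681, 0.0771, 0.0786 and 0.0795 by limma, and the other 4 lay between 0.235 and 0.911. The calls of Slco1a4 and Tek therefore rested on the choice of arrays in the fit.

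The TrspFF pair was the widest. TrspFF replicate 2 was higher than replicate 1 in 8 of 10 genes, by a median of 0.39 and by up to 0.76 in Tek, while 44.6% of all genes were higher in replicate 2. The median difference of replicate 2 from replicate 1 was 0.08 within Trsp-RIPKO and 0.05 within Trsp-Ins1KO. With every gene centred on its own mean, the set averaged 0.26 and 0.30 on the Trsp-RIPKO arrays, -0.42 and -0.26 on the Trsp-Ins1KO arrays, and -0.09 and 0.21 on the TrspFF arrays. TrspFF replicate 2 was thus near Trsp-RIPKO, and TrspFF replicate 1 lay between the knockouts. Without TrspFF replicate 2, Tek (1.04, adjusted p = 0.048) and Slco1a4 (1.20, adjusted p = 0.0379) passed in Trsp-RIPKO against TrspFF. Without replicate 1 the median of the set in that comparison was 0.10.

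**Figure D3:**
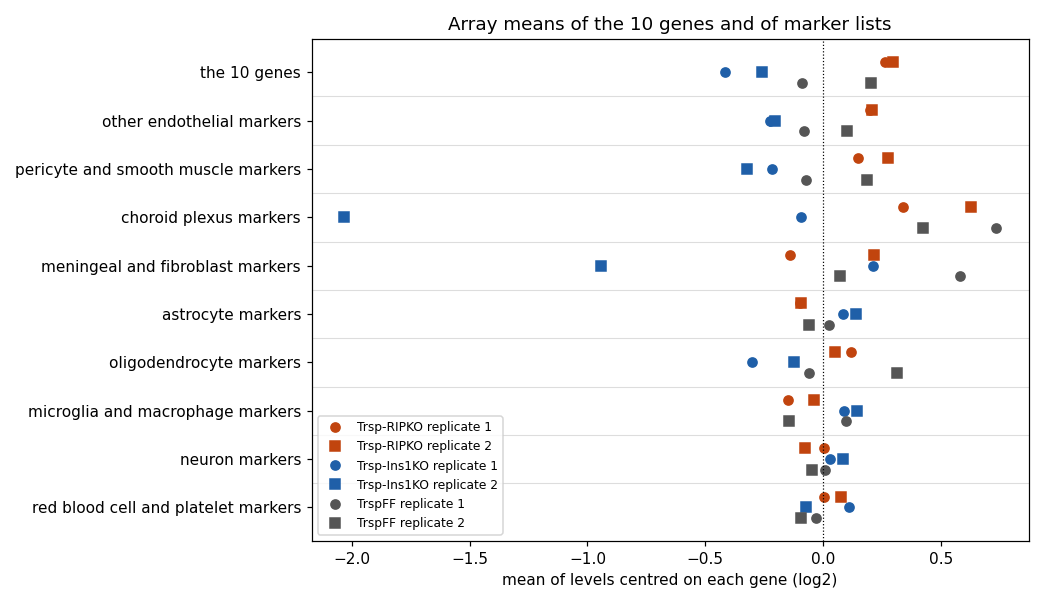
Mean centred level (log2) of the 10 genes and of the marker lists (rows) on each array. Orange marks Trsp-RIPKO, blue Trsp-Ins1KO and grey TrspFF, with circles for replicate 1 and squares for replicate 2. The 10 genes and the other endothelial markers are below 0 on both Trsp-Ins1KO arrays. So are the pericyte and smooth muscle, oligodendrocyte and choroid plexus markers. The choroid plexus list is at -0.10 on Trsp-Ins1KO replicate 1 and at -2.03 on replicate 2.

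Most of the genes had similar profiles over the 6 arrays. The correlation of a gene with the mean of the other 9 was 0.996 for Abcb1a, 0.961 for Cdh5, 0.897 for Slco1a4, 0.881 for Tek, 0.844 for Cldn5, 0.817 for Flt1, 0.805 for Esam and 0.693 for Slc2a1. Pecam1 (0.00373) and the tested probe of Kdr (-0.616) did not share the pattern. The genes share the same 6 arrays and their scaling, so these values describe the set and carry no test.

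Outside the set, the genes with the most similar pattern (Pearson r with the mean centred level of the set over the 6 arrays) were Sox17 (0.9942), Per1 (0.9942), Degs2 (0.9941), Strap (0.9931), Unc13a (0.9917), Ccl21a (0.9906) and Arl4d (0.99). With 6 arrays high values are common: 409 of the 10217 genes that could be named (4%) exceeded 0.9. Sox17 is a transcription factor of arterial endothelium, and it read -2.18 and -2.13 in Trsp-RIPKO, -3.60 and -3.33 in Trsp-Ins1KO, and -2.82 and -2.18 in TrspFF. Per1 is a core gene of the circadian clock, and it read 3.18 and 3.14 in Trsp-RIPKO, 1.80 and 2.21 in Trsp-Ins1KO, and 2.38 and 2.97 in TrspFF. Ccl21a, a chemokine gene with near-identical copies that a probe may not separate, had the widest range of those named here at 6.25.

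The lists of other endothelial genes differed in how many members had a positive difference between the knockouts, and 0 were called between the knockouts in the fit of 6 arrays. Over all genes 42.1% had a positive difference between the knockouts. The share was 48.1% in Trsp-RIPKO against TrspFF and 53.1% in Trsp-Ins1KO against TrspFF. Of 31 other endothelial markers 28 had a positive difference between Trsp-RIPKO and Trsp-Ins1KO (median 0.38), and 18 had an unadjusted p under 0.05 by limma, against 18.4% of all genes. Vwf, which encodes von Willebrand factor, read 0.73 and 0.80 in Trsp-RIPKO, -0.26 and -0.31 in Trsp-Ins1KO, and 0.06 and 0.41 in TrspFF, a difference of 1.05 between the knockouts (adjusted p = 0.263). Podxl, the sialomucin podocalyxin of the luminal surface, differed by 0.96 (adjusted p = 0.263). Against TrspFF, 27 of the 31 were positive in Trsp-RIPKO (median 0.11) and 27 were negative in Trsp-Ins1KO (median -0.23). The numbers at an unadjusted p under 0.05 were near or below the background: 6 of 31 in Trsp-RIPKO, against 23.9% of all genes, and 9 of 31 in Trsp-Ins1KO, against 26.0%. Slc9a3r2 and Mcam were among the exceptions in direction. Slc9a3r2 had 0.62 in Trsp-RIPKO and 0.50 in Trsp-Ins1KO (adjusted p = 0.0835 and 0.102 by limma). Mcam had -0.50 in Trsp-RIPKO (adjusted p = 0.109 by limma). Palmd had the smallest adjusted p of this list against TrspFF, with -0.80 in Trsp-Ins1KO (adjusted p = 0.0558).

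Among 25 tested endothelial receptors beside Tek, Flt1 and Kdr, 20 were positive between the knockouts (median 0.38, 0 called). At an unadjusted p under 0.05 by limma there were 15, against 18.4% of all genes. Tie1, the partner receptor of TIE2, had the largest difference of those named. It read -3.04 and -2.80 in Trsp-RIPKO, -4.62 and -4.44 in Trsp-Ins1KO, and -4.03 and -3.37 in TrspFF, so the genotypes did not overlap, and the difference between the knockouts was 1.61 (adjusted p = 0.263). Adgra2 (GPR124) and Reck form the Wnt7 co-receptor that maintains the barrier, and they differed by -0.67 (adjusted p = 0.0921) and -0.32 (adjusted p = 0.107) in Trsp-Ins1KO against TrspFF. Fzd4, the receptor of norrin, differed by -0.36 (adjusted p = 0.106) in the same comparison. Of the 25, 23 were negative there (median -0.31, 0 called, 9 at an unadjusted p under 0.05), and 16 were positive in Trsp-RIPKO against TrspFF (median 0.12, 0 called, 4 at an unadjusted p under 0.05). Over all genes the shares at an unadjusted p under 0.05 were 26.0% and 23.9% in the same order. Notch1, the Notch receptor of endothelium and many other cells, had negative differences from TrspFF in both knockouts (-0.80 in Trsp-RIPKO and -0.90 in Trsp-Ins1KO, adjusted p = 0.141 and 0.109 by limma).

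Of 19 tested ligands of the VEGF, angiopoietin, Wnt and Notch families and their like, 0 were called and the median difference between the knockouts was 0.09. Pdgfb, which endothelium secretes to recruit pericytes, read 0.20 on both Trsp-RIPKO arrays, -0.85 and -0.73 in Trsp-Ins1KO, and -0.59 and -0.06 in TrspFF, a difference of 0.99 (adjusted p = 0.263). Pgf, a ligand of VEGFR1, went the other way, with -0.43 between the knockouts (adjusted p = 0.263), and Angpt2 (0.31) and Efnb2 (0.36) had smaller differences. Against TrspFF the smallest adjusted p belonged to Sema3g, a semaphorin of arterial endothelium, which had -1.01 in Trsp-RIPKO (adjusted p = 0.0861) and -1.05 in Trsp-Ins1KO (adjusted p = 0.0776). Vegfa, the main VEGF ligand, differed by 0.44 in Trsp-RIPKO against TrspFF (adjusted p = 0.152). Of 24 endothelial transcription factors 18 were positive between the knockouts (median 0.34, 0 called). At an unadjusted p under 0.05 by limma there were 8, against 18.4% of all genes. The SOX factors Sox17, Sox7 and Sox18 differed by 1.31, 1.26 and 0.67, and Id1, a target of BMP signalling, by 1.01 (each with an adjusted p of 0.263 by limma). In Trsp-Ins1KO against TrspFF Id1 differed by -1.13 (adjusted p = 0.0803) and Sox7 by -0.81 (adjusted p = 0.0978). Against TrspFF 15 of the 24 were positive in Trsp-RIPKO (median 0.14) and 18 were negative in Trsp-Ins1KO (median -0.20), with 0 called. Nfatc1 was negative in both, with -0.55 in Trsp-RIPKO and -0.51 in Trsp-Ins1KO (adjusted p = 0.0948 and 0.0963 by limma). Klf4 (-0.30, adjusted p = 0.134) and Hey1 (-0.18, adjusted p = 0.31) were also lower in Trsp-RIPKO.

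Of 23 further barrier transporters 18 were positive between the knockouts (median 0.27, 0 called). At an unadjusted p under 0.05 by limma there were 9, against 18.4% of all genes. Abcb1b, the paralog of Abcb1a, read -2.44 and -2.20 in Trsp-RIPKO, -4.35 and -4.32 in Trsp-Ins1KO, and -4.04 and -2.54 in TrspFF. Its difference between the knockouts was 2.01 (adjusted p = 0.263). Slco1c1, a thyroid hormone transporter of brain capillaries, differed by 1.12 and Abcg2, an efflux pump, by 0.56 (each with an adjusted p of 0.263 by limma). Against TrspFF 13 of the 23 were positive in Trsp-RIPKO (median 0.23) and 16 were negative in Trsp-Ins1KO (median -0.28), with 0 called. Slc29a1 was positive in both knockouts (0.47 in each, adjusted p = 0.107 and 0.0963 by limma). Slc7a1 was negative in both (-0.43 and -0.47, adjusted p = 0.121 and 0.0957 by limma). Slco1a5, the paralog of Slco1a4 and a member of the choroid plexus list, was not well above background in Trsp-Ins1KO (0 of 2 arrays). It entered the tests only through Trsp-RIPKO, so the filter favoured a higher level there and the difference is only described. In TrspFF it read -7.84 and -4.91. It was at least 3.56-fold higher in Trsp-RIPKO than in Trsp-Ins1KO (adjusted p = 0.263 for the fitted difference by limma). For that bound each dim array took the lowest signal called well above background on it, or its own where higher. The files give no probe sequences, so whether probes of these paralogs read each other's transcripts was not tested.

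The other junction genes, many of which epithelia also use, had a median near that of all genes. Of 17 tested tight and adherens junction genes 8 were positive between the knockouts (median -0.04, 0 called). At an unadjusted p under 0.05 by limma there were 3, near the 18.4% of all genes. The 4 with the smallest p included Ocln (occludin, 0.58), Lsr (angulin-1, 0.57) and Ptprb (VE-PTP, an endothelial phosphatase that acts on VE-cadherin and TIE2, 0.76), each with an adjusted p of 0.263. Marveld3 was the fourth (-0.35, adjusted p = 0.314). Lsr had -0.60 in Trsp-Ins1KO against TrspFF (adjusted p = 0.0581).

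The list of leaky or activated endothelium (11 tested, median difference between the knockouts -0.08) held the one called gene of the 18 lists set beside the members. Selp encodes P-selectin, an adhesion molecule that activated endothelium and platelets show to leukocytes. It read -5.83 and -5.87 in Trsp-RIPKO, -5.79 and -5.76 in Trsp-Ins1KO, and -3.56 and -3.53 in TrspFF. Selp fell in both knockouts relative to TrspFF by limma, with -2.31 in Trsp-RIPKO (adjusted p = 0.0136) and -2.23 in Trsp-Ins1KO (adjusted p = 0.012). The TrspFF arrays are alone on their slide, so slide and genotype cannot be told apart for this call, and 0 genes, Selp included, passed in fits of only the groups compared. Its signal stood well above background on all arrays but 1 of Trsp-Ins1KO. The arterial list (12 tested) had a median of 0.16 between the knockouts and the list of hypoxia targets (17 tested) a median of 0.05. In each 0 were called, and 1 and 2 genes had an unadjusted p under 0.05 by limma, below the 18.4% of all genes.

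In the fit of the 4 knockout arrays, 10 genes of the lists beside the members passed. The lists hold 314 genes with the members, tested or not. Of all tested genes 1.40% were called, 163 higher and 156 lower in Trsp-RIPKO than in Trsp-Ins1KO. Of the 10 list genes, 1 was Slco1a5, which had entered the tests only through the genotype where it was high. The other 9 were well above background on all 6 arrays, and each rose in Trsp-RIPKO relative to Trsp-Ins1KO. They were Abcb1b, Slco1c1, Pdgfb, Tie1, Sox7, Sox17, Podxl, Vwf and the pericyte gene Kcnj8, with adjusted p-values from 0.0197 (Abcb1b) to 0.0451 (Sox17) by limma. These genes were singled out after their values were seen. Kcnj8, a potassium channel subunit, read -3.84 and -3.82 in Trsp-RIPKO, -4.78 and -4.77 in Trsp-Ins1KO, and -4.60 and -3.72 in TrspFF.

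**Figure D4:**
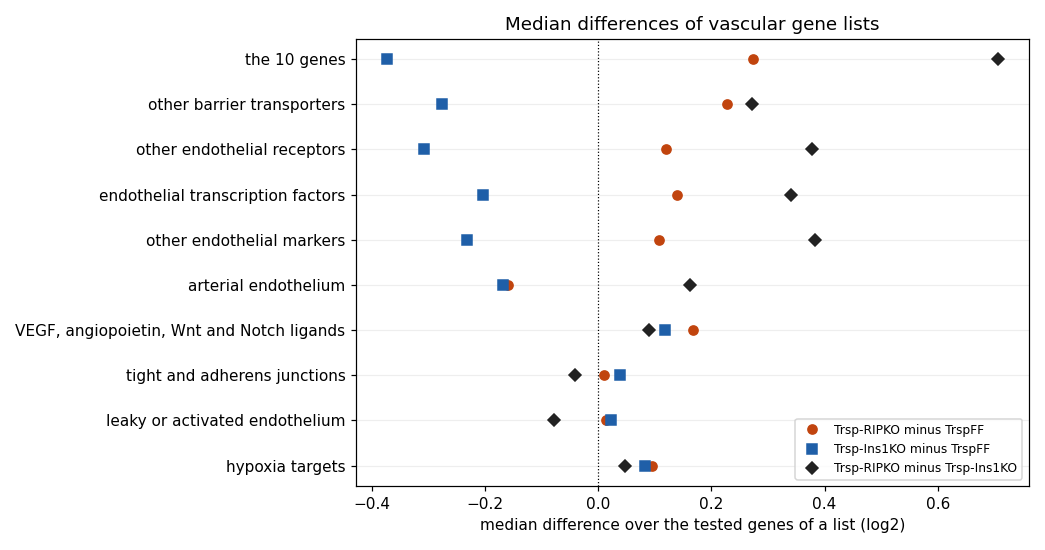
Median difference (log2, horizontal axis) over the 10 genes and over the tested genes of each vascular list, with circles for Trsp-RIPKO minus TrspFF, squares for Trsp-Ins1KO minus TrspFF and diamonds for Trsp-RIPKO minus Trsp-Ins1KO. Between Trsp-RIPKO and Trsp-Ins1KO the lists of other endothelial markers, receptors and transcription factors lie between 0.34 and 0.38, below the 10 genes at 0.71, and the junction list lies at -0.04.

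Markers of other cells were measured on the same arrays. Of 16 tested pericyte and smooth muscle markers 14 were positive between the knockouts (median 0.50, 0 called). At an unadjusted p under 0.05 by limma there were 10, and the share over all genes in this comparison was 18.4%. The list averaged 0.15 and 0.28 in Trsp-RIPKO, -0.22 and -0.32 in Trsp-Ins1KO, and -0.07 and 0.19 in TrspFF (centred log2). The group means stood in the same order as those of the endothelial set. Astrocyte (median -0.23), microglia (-0.15) and neuron (-0.14) markers had negative medians between the knockouts, and oligodendrocyte markers a positive one (0.31). Negative were 10 of 12 astrocyte, 12 of 14 microglia and 7 of 12 neuron markers, and positive were 11 of 12 oligodendrocyte markers. With 0 called, 5, 3, 1 and 1 of them had an unadjusted p under 0.05 by limma, in the same order. Red cell and platelet markers (7 tested) had a median of 0.00, ependymal and tanycyte markers one of -0.13, meningeal and fibroblast markers one of 0.40 and choroid plexus markers one of 1.55, again with 0 called between the knockouts by limma and 1, 4, 2 and 5 at an unadjusted p under 0.05 in these 4 lists. The choroid plexus median and count include Slco1a5, which entered the tests only through Trsp-RIPKO. That list also holds Cldn1, which was well above background on 0 Trsp-Ins1KO arrays and entered only through TrspFF. The part of all these cell types in the differences of the 10 genes was not tested.

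Markers of the choroid plexus, the secretory epithelium of the brain ventricles, varied between the Trsp-Ins1KO arrays. Its 18 markers averaged 0.34 and 0.63 in Trsp-RIPKO, -0.10 and -2.03 in Trsp-Ins1KO, and 0.73 and 0.43 in TrspFF (centred log2). Their summed level, relative to the 75th percentile on the linear scale, was 95.02 and 110 in Trsp-RIPKO, 79.8 and 19.5 in Trsp-Ins1KO, and 148 and 92.8 in TrspFF. Of the 18, 17 and 18 were well above background in Trsp-RIPKO, 16 and 14 in Trsp-Ins1KO, and 17 and 18 in TrspFF. Meningeal markers were also lowest on Trsp-Ins1KO replicate 2 (-0.94, against 0.21 on replicate 1). The 10 endothelial and barrier genes averaged -0.42 on Trsp-Ins1KO replicate 1 and -0.26 on replicate 2. Without replicate 2 their median difference between the knockouts was 0.68. The choroid plexus list was lower on Trsp-Ins1KO replicate 1, too, than on both Trsp-RIPKO arrays, and its part in the differences of the 10 genes was not tested.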

How the data were processed

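Per the labels' protocols, total RNA of the hypothalamus was labelled with Cy3 for single-colour Agilent arrays. Per the file headers, the scans were quantified with Agilent Feature Extraction 10.7.3.1, the deposited scanner files hold the processed intensity of each spot with quality flags (other values), and the array annotation follows mm9. The authors' deposited value table holds log2 values centred per probe, with column medians of 0.0329 and -0.00951 (TrspFF), 0.0508 and -0.00935 (columns named Trsp-RIPKO), and -0.0102 and -0.0496 (columns named Trsp-Ins1KO). The sources used here do not give its scaling.

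Of 43020 spots that are not controls, unflagged spots of a probe were averaged to 39429 probes. Those flagged on some array (118) were left out. A probe was kept where both arrays of some group had it well above background (28065), symbols were assigned through transcript accessions and RefSeq (26055 probes, 66.1%), and the brightest kept probe stood for a gene. limma 3.58.1 in R 4.3.3, with labels read by jsonlite 2.0.0, fitted the 3 group means to all 6 arrays (4.87 degrees of freedom, median SE 0.127). The fit was tested on simulated data. Replicate arrays differed with an SD over genes of 0.412 in Trsp-RIPKO, 0.442 in Trsp-Ins1KO and 0.511 in TrspFF, and the number of arrays limits the precision.

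The members and the lists (314 genes in 21 lists with the members, 7 of them in more than 1 list) were chosen with earlier results of these data known. Named genes are all members, list genes past the threshold or otherwise the 4 with the smallest p in each comparison, and the 8 genes of most similar pattern whose range reached at least 0.5 of that of the set, 1 of which is not reported here. Alternatives were normexp (offset 50), quantile and median scaling, the value table, other filters, the mean of probes, eBayes with trend and robust, a replicate block, fits without the group not compared and leaving out each array. Slide as a block was not run: TrspFF is alone on its slide, so a slide term cannot be separated from the group means. The fit of the 4 knockout arrays is a different one, since it leaves out the TrspFF arrays and their spread.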

Additional observations from a re-analysis of the deposited data

Results flagged for a closer look

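In 3 genes of the set the knockouts lay on opposite sides of TrspFF on every array: both Trsp-RIPKO arrays were above both TrspFF arrays, and both Trsp-Ins1KO arrays were below them. The difference between Trsp-RIPKO and Trsp-Ins1KO was tested by limma and did not pass in the fit of 6 arrays (adjusted p = 0.263 for each of the 3). It was 1.26 (log2) for Slco1a4, 1.08 for Abcb1a and 0.90 for Cdh5. The order was found in 1.65% of all genes. In the fit of the 4 knockout arrays Slco1a4 passed (adjusted p = 0.0245 by limma), while Abcb1a (0.0771) and Cdh5 (0.0681) did not. Under the names of the deposited value table the direction turns.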

How the results depend on the processing

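No member passed the threshold under the alternatives tried, except in fits without 1 or both TrspFF arrays. The fit of only Trsp-RIPKO and Trsp-Ins1KO called 2 members. Leaving out single arrays called 0 to 2 members in Trsp-RIPKO against TrspFF (2 without TrspFF replicate 2), 0 to 1 in Trsp-Ins1KO against TrspFF (1 without TrspFF replicate 1) and 0 to 2 in Trsp-RIPKO against Trsp-Ins1KO (2 without either TrspFF array, which leaves the differences as they were). An array left alone in its group is assumed to vary like the others. The median of the set ranged from 0.1026 to 0.381, from -0.6329 to -0.2884 and from 0.6773 to 0.7588 in these fits, in the same order of comparisons.

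In Trsp-RIPKO against TrspFF the count of called genes was 224 with median scaling (which moved the median of all genes by 0.11), 0 without a filter, 784 with trend and robust (75.5% lower, against 94.2%), 0 with only the groups compared and 0 to 495 without single arrays (495 without TrspFF replicate 2). With normexp 82.9% of calls were lower. In Trsp-Ins1KO against TrspFF it was 25 without a filter, 1240 with trend and robust (54.6% lower, against 86.8%), 0 with only the groups compared and 0 to 511 without single arrays (511 without TrspFF replicate 1), and with normexp 67.2% of calls were lower. In Trsp-RIPKO against Trsp-Ins1KO it was 1 with normexp, 1 without a filter, 2 with all 6 arrays above background, 1 with trend and robust, 319 with only the groups compared and 0 to 319 without single arrays. The replicate block called 0 genes and 0 members in all 3 comparisons. Samples of the same replicate number did not deviate together (r of -0.025, 0.089 and -0.022), so they share only a number.

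The deposited value table, read by its column names, turned the knockouts round. The median of the set was -0.3734 in Trsp-RIPKO against TrspFF, 0.2727 in Trsp-Ins1KO against TrspFF and -0.7051 between the knockouts. Reversed there in Trsp-RIPKO against TrspFF were Cdh5 (-0.4708), Cldn5 (-0.2132), Tek (-0.3183), Slco1a4 (-0.4286), Slc2a1 (-0.1001) and Abcb1a (-0.6672). In Trsp-Ins1KO against TrspFF they were Cdh5 (0.4248), Cldn5 (0.4775), Tek (0.6587), Slco1a4 (0.8343), Slc2a1 (0.1299) and Abcb1a (0.4154). Between the knockouts all 10 turned: Cdh5 -0.8956, Esam -0.7195, Cldn5 -0.6907, Pecam1 -0.0439, Tek -0.977, Flt1 -0.4695, Kdr 0.2045, Slco1a4 -1.2629, Slc2a1 -0.23 and Abcb1a -1.0826. The cause of the exchanged names was not tested.

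Other reversals were Flt1 in Trsp-RIPKO against TrspFF with median scaling (0.0622), Slc2a1 in Trsp-Ins1KO against TrspFF with normexp (0.0113), Kdr in that comparison with median scaling (0.018) and Kdr between the knockouts with the mean of its probes (0.1686). Without single arrays, Esam ranged from -0.4145 to 0.1073 and Flt1 from -0.1849 to 0.0916 in Trsp-RIPKO against TrspFF. In Trsp-Ins1KO against TrspFF Kdr ranged from -0.2462 to 0.1096, Cldn5 from -0.4609 to 0.0351, Tek from -0.6982 to 0.0622 and Slc2a1 from -0.3213 to 0.1216. Pecam1 ranged from -0.2258 to 0.3159 between the knockouts. All 11 probes were well above background on all 6 arrays, and the number of arrays limits the precision (median SE 0.127 over genes).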
